A study of Homo sapiens with 14 samples.

Results

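The 8 genes described here code for effectors of necroptosis and pyroptosis, the lytic forms of programmed cell death: ZBP1, RIPK1, RIPK3, MLKL, GSDMB, GSDMD, PYCARD and IL18. They were taken by gene name from the deposited count table, which lists 36555 gene IDs, and all 8 were found there. RNA was sequenced from HT-29, a human colorectal carcinoma cell line labelled as wild type. The control cells were kept in medium with 0.1% DMSO, 2 groups received 20 uM ferrostatin-1 or 20 uM liproxstatin-1 alone, and 3 groups received human recombinant TNF (100 ug/ml as labelled) alone or with 20 uM of either inhibitor. Treatment lasted 72 h, a time the labels do not give for the control, and whether the other groups contained DMSO is not labelled. The libraries numbered 3 for control, 2 for each inhibitor alone, 2 for TNF alone, 3 for TNF plus ferrostatin-1 and 2 for TNF plus liproxstatin-1. The design text names the replicates as technical, so p-values measure the spread between these libraries only. The study asked why the 2 inhibitors, both radical-trapping antioxidants that block the lipid peroxidation of ferroptosis, act differently when TNF kills these cells.

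TNF bound to its receptor recruits the kinase RIPK1, which can pass the signal to survival through NF-kB, to apoptosis through caspase-8 or, when caspase-8 is blocked, to necroptosis. In necroptosis RIPK1, or the nucleic acid sensor ZBP1, binds the kinase RIPK3, which phosphorylates the pseudokinase MLKL, and MLKL then breaches the plasma membrane. HT-29 cells are a common model of this pathway because they make both RIPK3 and MLKL. In pyroptosis a sensor protein gathers PYCARD (also called ASC) into an inflammasome that activates caspase-1, which cuts the pore-forming gasdermin GSDMD and the cytokine IL18. GSDMB is a gasdermin of epithelia that is cut by granzyme A. All of these steps act on proteins, which RNA sequencing does not measure.

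The short motif through which RIPK1, RIPK3 and ZBP1 join each other, the RIP homotypic interaction motif, is shown first because it is the physical link between 3 of the genes. Each run is the reference coding strand of GENCODE v29, not sequence read from these libraries, with the codons of the core 4 amino acids in capitals. They encode IQIG in ZBP1 (residues 206 to 209 of 429), IQIG in RIPK1 (residues 539 to 542 of 671) and VQVG in RIPK3 (residues 458 to 461 of 518).
ZBP1: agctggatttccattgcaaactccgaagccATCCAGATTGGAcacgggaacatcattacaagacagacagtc
RIPK1: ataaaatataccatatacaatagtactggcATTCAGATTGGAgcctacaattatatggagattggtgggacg
RIPK3: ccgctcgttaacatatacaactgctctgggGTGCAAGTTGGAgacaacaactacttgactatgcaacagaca
Over these 72 bases the RIPK1 and RIPK3 runs were identical at 54.2% of positions, ZBP1 and RIPK3 at 43.1%, and ZBP1 and RIPK1 at 37.5%. The fourth run holds the site at which caspase-1 releases mature IL18, with the codons of LESD (residues 33 to 36 of 193) in capitals.
IL18: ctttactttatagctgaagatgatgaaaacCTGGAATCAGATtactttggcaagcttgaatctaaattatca

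Promoter windows, from 250 bases before to 50 after a RefSeq start site on GRCh38.p14, were on hand for PYCARD, MLKL and RIPK1, 3 of the 8 genes. Those of PYCARD and RIPK1 are printed because they hold the member with the 2nd largest rise under TNF and a member that was not called. The PYCARD window is chr16:31202711-31203010 on the minus strand.
PYCARD: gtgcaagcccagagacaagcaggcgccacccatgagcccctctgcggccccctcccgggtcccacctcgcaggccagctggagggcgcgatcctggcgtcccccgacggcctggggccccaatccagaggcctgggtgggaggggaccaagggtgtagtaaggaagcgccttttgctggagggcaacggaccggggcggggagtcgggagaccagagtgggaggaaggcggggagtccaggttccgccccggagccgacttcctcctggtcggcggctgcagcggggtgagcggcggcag
Of 3 RIPK1 windows, the one printed is chr6:3068128-3068427 on the plus strand, with its single motif match in capitals. It lies downstream of the window chr6:3063717-3064016, which holds the start of RIPK1 in the deposited table.
RIPK1: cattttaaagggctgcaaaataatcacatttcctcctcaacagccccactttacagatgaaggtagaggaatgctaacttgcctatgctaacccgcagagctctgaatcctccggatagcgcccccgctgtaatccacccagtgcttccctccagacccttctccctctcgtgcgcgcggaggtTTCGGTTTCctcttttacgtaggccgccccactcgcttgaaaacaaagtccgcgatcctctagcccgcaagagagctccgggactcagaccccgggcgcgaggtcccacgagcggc
3 motifs were searched on both strands: the interferon-gamma activated site TTCNNNGAA, the core GAAANNGAA of sites for interferon regulatory factors, and an NF-kB core GGGNNTTCC. They occur in 7.66%, 8.11% and 6.58% of 35116 RefSeq promoter windows of the same length. The printed RIPK1 window held 1 match of the interferon regulatory factor core, on the minus strand at bases 185 to 193 of the window, 66 bases before the start site. GAAANNGAA reads there as its reverse complement. The overlapping RIPK1 window chr6:3068244-3068543 held the same match, 182 bases before its own start site. PYCARD, MLKL and the most upstream of 3 RIPK1 windows held no match to any of the 3, which says only that these letters are not in those 300 bases.

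The libraries held 59913850 to 75838597 counts, and 22179 genes passed the filter on low counts, among them all 8 members. Values are given as CPM (counts scaled to the library total, after TMM scaling), and libraries are named by the number in their column of the table. A gene is called changed at an adjusted p below 0.05 in edgeR's quasi-likelihood test, adjusted by the Benjamini-Hochberg method over all 22179 genes, and log2 changes are given with their standard error (SE). The 2 TNF libraries stood apart from each other: the chi-square of their counts was 203.4 per degree of freedom, against 14.9 to 74.3 within the other groups. For the 8 genes, the calls that rest on them are therefore also given without each. Without library 3 many more genes were called, 31.2% of all genes tested for TNF against control, and without library 1 9.31%. All 12 listed markers of colon epithelium were in the table, with a summed level of 10160 to 12740 CPM without TNF and 9893 to 14210 with it, mostly KRT8 and KRT18. LGALS4 had 33691 to 49410 counts without TNF and 9546 to 17666 with it. CDH1 and VIL1 were likewise lower in every library with TNF than in any without. Counts of the other listed epithelial markers overlapped. The leukocyte marker PTPRC was at 0 in 13 of 14 libraries and at 4 counts in control library 1, whereas ITGAM had 12 to 37 counts without TNF and 1104 to 1753 with it. 8 of 10 leukocyte markers were in the table and summed to 809 to 1145 CPM without TNF and 840 to 1233 with it, mostly LYZ. Fibroblast markers summed to 4.47 to 16.3 CPM without TNF and 4.83 to 50.1 with it, and endothelial markers to 1.11 to 36.9 and 3.01 to 49.3. The part of these markers in the results was not tested. KRT81, a keratin that separates libraries within groups, ranged from 1.45 to 57.05 CPM between the ferrostatin-1 libraries and from 1.85 to 13.55 CPM between those that combine liproxstatin-1 and TNF. In a bulk sample, fewer cells of a type and less RNA per cell cannot be told apart.

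TNF raised 6 of the 8 genes against control and lowered none. The nucleic acid sensor ZBP1 rose most (14.1-fold), followed by the adaptor PYCARD (2.62-fold), and smaller rises were seen in IL18 (1.56-fold), GSDMB (1.53-fold), GSDMD (1.36-fold) and MLKL (1.29-fold). The kinases RIPK1 and RIPK3 did not pass the test. Over all genes tested, 14.7% were called in either direction and 8.24% were called higher. The members' median log2 change was 0.53, against -0.02 over all genes tested. The members were chosen with earlier results of these data known. Their counts and medians, here and below, are therefore descriptions and no test of the members as a set.

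**Figure D1:**
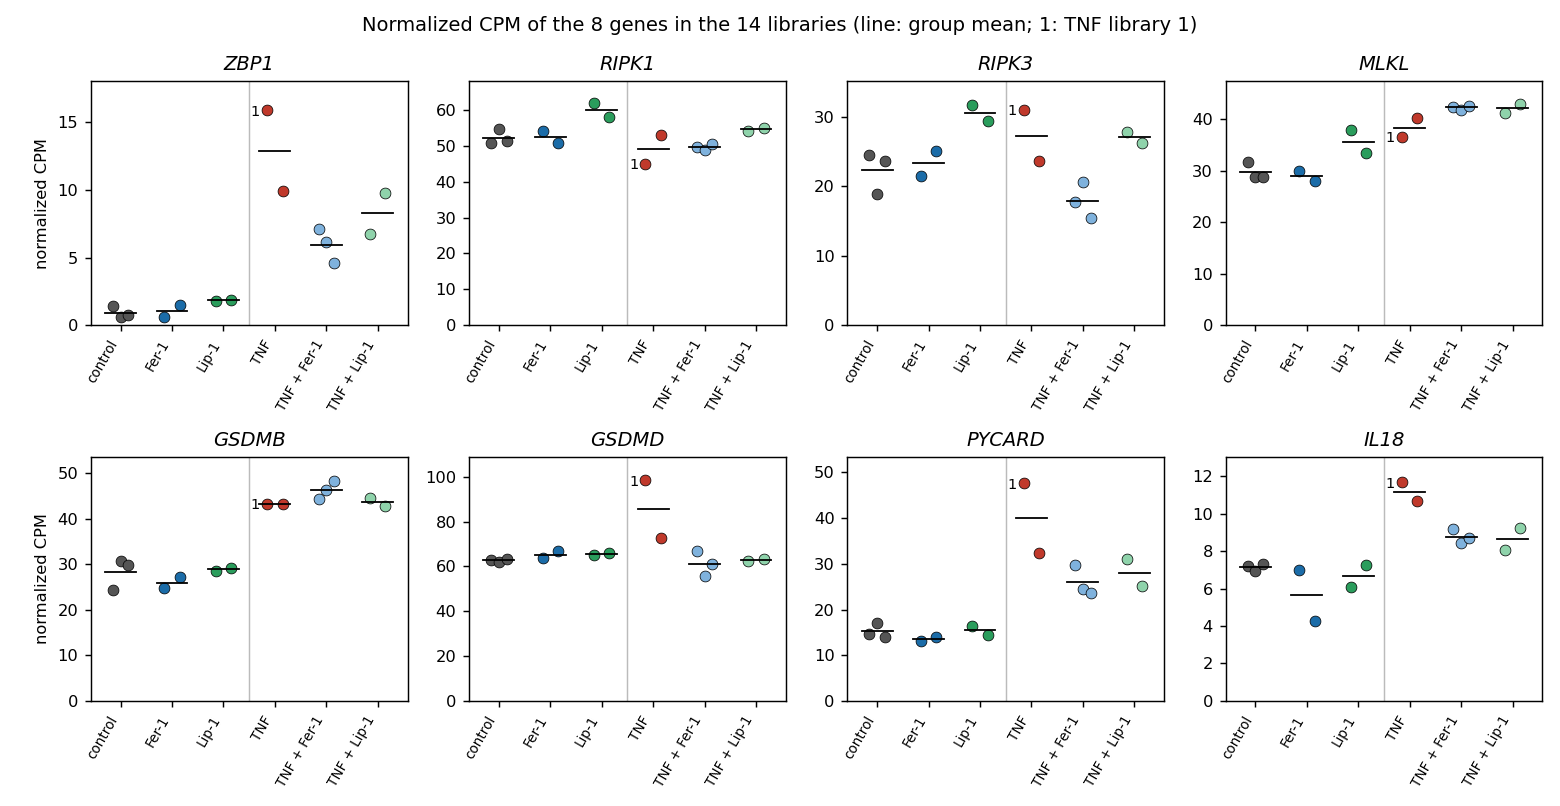
Normalized CPM (vertical axis, from 0, own scale per gene) of each gene in the 14 libraries, by group (horizontal axis); points are libraries, black lines group means, the grey line parts the groups without TNF from those with it, and 1 marks TNF library 1. ZBP1, GSDMB, PYCARD and IL18 lie higher in all 7 libraries with TNF than in all 7 without, and TNF library 1 is the highest point for ZBP1, GSDMD, PYCARD and IL18.

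ZBP1 (ENSG00000124256, chr20:57603846-57620576, minus strand) senses Z-form nucleic acids and can start necroptosis without a death receptor. Its level was 1.43, 0.598 and 0.722 CPM in control libraries 1, 2 and 3, 0.622 and 1.48 CPM with ferrostatin-1, and 1.82 and 1.84 CPM with liproxstatin-1. With TNF it was 15.9 and 9.92 CPM in libraries 1 and 3, with TNF plus ferrostatin-1 7.09, 6.14 and 4.63 CPM, and with TNF plus liproxstatin-1 6.77 and 9.80 CPM. ZBP1 was thus low in every library without TNF, and the lowest library with TNF lay above the highest without it. The rise was 3.81 ± 0.42 (SE) on the log2 scale with TNF alone (adjusted p = 1.15e-04, edgeR), 2.51 ± 0.45 in the presence of ferrostatin-1 (adjusted p = 0.00251) and 2.18 ± 0.46 in the presence of liproxstatin-1 (adjusted p = 0.00848). Without TNF library 1 the log2 rise of ZBP1 over control was 3.43, and without library 3 it was 4.11.

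RIPK1 (ENSG00000137275, chr6:3063991-3115187, plus strand) is the kinase and scaffold at the TNF receptor. Its level was 50.7, 54.7 and 51.5 CPM in control, 54.1 and 50.8 CPM with ferrostatin-1, and 62.0 and 58.2 CPM with liproxstatin-1. Under TNF it was 45.1 and 53.0 CPM, with ferrostatin-1 added 49.6, 48.8 and 50.4 CPM, and with liproxstatin-1 added 54.2 and 55.1 CPM. The groups overlapped, and no library with TNF lay above all those without. The log2 difference between TNF and control was -0.09, with a 95% interval from -0.30 to 0.11 (adjusted p = 0.553, edgeR); without TNF library 1 it was 0.02 and without library 3 -0.22. This is the narrowest interval of the 8 genes for TNF against control. The overlapping genes RNA5SP201 and AL031963 had at most 0.0576% and 1.41% of the counts of RIPK1.

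RIPK3 (ENSG00000129465, chr14:24336025-24340015, minus strand) is the kinase that phosphorylates MLKL. It was measured at 24.5, 18.9 and 23.7 CPM in control, 21.5 and 25.1 CPM with ferrostatin-1, and 31.6 and 29.4 CPM with liproxstatin-1. With TNF alone the level was 31.0 and 23.6 CPM, with TNF plus ferrostatin-1 17.8, 20.6 and 15.5 CPM, and with TNF plus liproxstatin-1 27.8 and 26.3 CPM. The 2 liproxstatin-1 libraries were above all control libraries, and all 3 libraries with TNF plus ferrostatin-1 were below both with TNF alone and both with TNF plus liproxstatin-1. The log2 difference between TNF and control was 0.29 (95% interval -0.07 to 0.64, adjusted p = 0.26, edgeR), it was 0.08 without TNF library 1, and it was 0.47 without library 3 (adjusted p = 0.0526). Within ferrostatin-1 the TNF difference of RIPK3 was -0.38 (adjusted p = 0.14), which voom called (adjusted p = 0.0286), and within liproxstatin-1 -0.18 (adjusted p = 0.598). The overlapping gene AL096870 had at most 1.22% of the counts of RIPK3.

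MLKL (ENSG00000168404, chr16:74671855-74700862, minus strand) is the executor that permeabilizes the membrane. Control libraries had 31.7, 28.8 and 28.8 CPM, ferrostatin-1 libraries 30.0 and 28.1 CPM, and liproxstatin-1 libraries 37.8 and 33.5 CPM. TNF libraries had 36.6 and 40.2 CPM, those with TNF plus ferrostatin-1 42.4, 41.8 and 42.6 CPM, and those with TNF plus liproxstatin-1 41.3 and 43.0 CPM. 6 of the 7 libraries with TNF were above all 7 without, and the exception was TNF library 1, which was below liproxstatin-1 library 1. MLKL rose by 0.37 ± 0.10 (SE, log2) with TNF alone (adjusted p = 0.0259, edgeR) and by 0.54 ± 0.10 with TNF in ferrostatin-1 (adjusted p = 0.0027). In liproxstatin-1 the MLKL difference was 0.24 (95% interval 0.01 to 0.47, adjusted p = 0.161). Over control it was 0.44 without TNF library 1 and 0.30 without library 3, called in both. The MLKL call was lost without control library 2 (adjusted p = 0.0567) or 3 (0.0761), or without library 1 or 2 of TNF plus liproxstatin-1. It was also lost with no filter, the replicate block, only the groups compared and voom. In all, the MLKL call held in 13 of 21 alternative analyses.

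GSDMB (ENSG00000073605, chr17:39904595-39918650, minus strand) is a gasdermin expressed in epithelia, and its libraries lay in non-overlapping ranges without and with TNF. It had 24.2, 30.6 and 29.9 CPM in control, 24.8 and 27.1 CPM with ferrostatin-1, and 28.5 and 29.2 CPM with liproxstatin-1. With TNF it had 43.2 and 43.1 CPM, with TNF plus ferrostatin-1 44.3, 46.4 and 48.3 CPM, and with TNF plus liproxstatin-1 44.4 and 42.9 CPM. The 2 TNF libraries, which stood apart over all genes, differed little at this gene. GSDMB rose by 0.61 ± 0.11 (SE, log2) with TNF alone (adjusted p = 0.00345, edgeR), by 0.83 ± 0.11 in ferrostatin-1 (adjusted p = 4.47e-04) and by 0.60 ± 0.12 in liproxstatin-1 (adjusted p = 0.00695). Without either TNF library its rise over control was 0.61.

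GSDMD (ENSG00000104518, chr8:143553207-143563062, plus strand) is the pore former cut by the inflammatory caspases. It was at 63.0, 61.8 and 63.4 CPM in control, 63.8 and 66.7 CPM with ferrostatin-1, and 65.0 and 65.8 CPM with liproxstatin-1. TNF libraries 1 and 3 had 98.4 and 72.5 CPM, whereas TNF with ferrostatin-1 gave 66.9, 55.6 and 61.1 CPM and TNF with liproxstatin-1 62.5 and 63.5 CPM. The 2 libraries with TNF alone were the highest of the 14, and all libraries with both TNF and an inhibitor lay near the level without TNF. GSDMD rose by 0.45 ± 0.12 (SE, log2) with TNF alone (adjusted p = 0.0298, edgeR); without TNF library 1 the value was 0.21 and the call was lost (adjusted p = 0.212), and without library 3 it was 0.65. The GSDMD call was also lost without any 1 of the control libraries (adjusted p = 0.0815, 0.0624 and 0.07 without libraries 1, 2 and 3) and without library 1 or 2 of TNF plus liproxstatin-1. The replicate block, only the groups compared and voom lost it as well, and it held in 12 of 21 alternative analyses. The TNF difference was -0.09 in ferrostatin-1 (adjusted p = 0.681) and -0.05 in liproxstatin-1 (adjusted p = 0.857).

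PYCARD (ENSG00000103490, chr16:31201486-31203450, minus strand), the inflammasome adaptor, was measured at 14.7, 17.1 and 13.9 CPM in control, 13.2 and 14.03 CPM with ferrostatin-1, and 16.5 and 14.4 CPM with liproxstatin-1. With TNF its level was 47.6 and 32.3 CPM, with TNF plus ferrostatin-1 29.8, 24.4 and 23.7 CPM, and with TNF plus liproxstatin-1 31.1 and 25.1 CPM. TNF library 1 was far above the rest, and all 7 libraries with TNF were above all 7 without. The PYCARD rise on the log2 scale was 1.39 ± 0.17 (SE) with TNF alone (adjusted p = 3.13e-04, edgeR), 0.93 ± 0.18 in ferrostatin-1 (adjusted p = 0.00428) and 0.86 ± 0.20 in liproxstatin-1 (adjusted p = 0.0126). Without TNF library 1 its rise over control was 1.08, and without library 3 it was 1.64. PYCARD-AS1, an overlapping gene on the opposite strand, had at most 30 counts, or 2.06% of those of PYCARD.

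IL18 (ENSG00000150782, chr11:112143253-112164093, minus strand), the cytokine that caspase-1 matures at the site printed above, was at 7.19, 6.96 and 7.31 CPM in control, 7.00 and 4.25 CPM with ferrostatin-1, and 6.07 and 7.24 CPM with liproxstatin-1. It reached 11.7 and 10.7 CPM with TNF, 9.16, 8.44 and 8.71 CPM with TNF plus ferrostatin-1, and 8.08 and 9.24 CPM with TNF plus liproxstatin-1. All 7 libraries with TNF were above all 7 without, by a small margin for those with liproxstatin-1. IL18 rose by 0.64 ± 0.19 (SE, log2) with TNF alone (adjusted p = 0.0385, edgeR) and by 0.64 ± 0.19 in ferrostatin-1 (adjusted p = 0.0377), and in liproxstatin-1 its difference was 0.38 (95% interval -0.07 to 0.83, adjusted p = 0.266). The call against control was weak: without TNF library 1 the IL18 value was 0.58 and did not pass (adjusted p = 0.155), and without library 3 it was 0.70 (adjusted p = 0.0315). It held in 6 of 21 alternative analyses, and leaving out single libraries of any group but ferrostatin-1 could lose it, with control library 1 giving 0.0974 and TNF plus ferrostatin-1 library 2 giving 0.061 as the adjusted p. In ferrostatin-1 the IL18 value was 0.32 (adjusted p = 0.337) without ferrostatin-1 library 3, the lowest IL18 library, and that call held in 10 of 21 alternatives. The overlapping opposite-strand gene AP002884 had at most 4.34% of the counts of IL18.

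**Figure D2:**
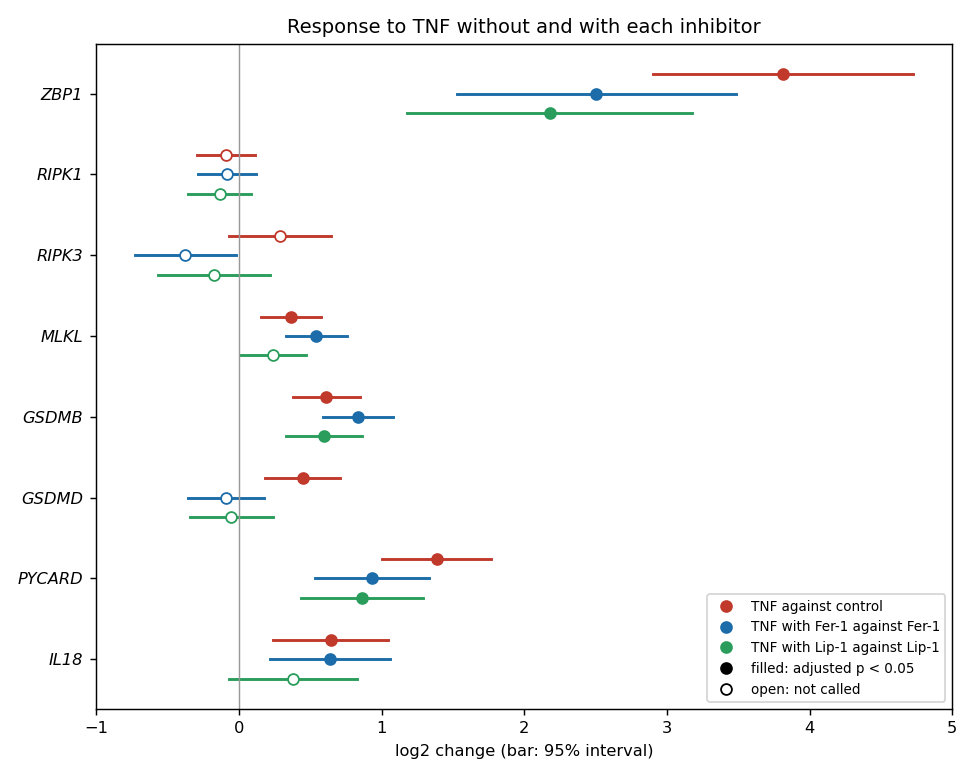
Log2 change with TNF (horizontal axis) of each gene (vertical axis) in cells without inhibitor (red), with ferrostatin-1 (blue) and with liproxstatin-1 (green); bars are 95% intervals and filled points have an adjusted p below 0.05. ZBP1, GSDMB and PYCARD are called in all 3 settings, GSDMD with TNF alone, and RIPK1 and RIPK3 in none.

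Across the 3 settings, TNF raised 6, 5 and 3 of the 8 genes: without inhibitor, in ferrostatin-1 and in liproxstatin-1. In ferrostatin-1, 18.1% of all genes tested were called and 8.76% were called higher; in liproxstatin-1 the shares were 14.6% and 7.57%. The median log2 change of the members was 0.59 in ferrostatin-1 and 0.31 in liproxstatin-1, against 0.02 and 0.06 over all genes tested. ZBP1, GSDMB and PYCARD were called in each setting. The 3 calls in liproxstatin-1 rested on 2 libraries a group: without liproxstatin-1 library 1, or without library 3, none of the 3 passed, with log2 values for ZBP1 of 2.17 and 2.19, for GSDMB of 0.58 and 0.62, and for PYCARD of 0.96 and 0.77. Among the libraries of TNF plus liproxstatin-1, GSDMB (0.56) and PYCARD (0.69) lost their calls without library 1, and ZBP1 (1.88) without library 2. Without ferrostatin-1 library 1, PYCARD was at 0.89 within ferrostatin-1 and just missed the threshold (adjusted p = 0.0528).

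The TNF effect averaged over the 3 settings used all 14 libraries and raised 5 of the 8 genes, where 33.9% of all genes tested were called and 17.6% were called higher. Its log2 size was 2.83 ± 0.26 (SE) for ZBP1 (adjusted p = 7.14e-06, edgeR), 1.06 ± 0.11 for PYCARD (adjusted p = 1.57e-05), 0.68 ± 0.07 for GSDMB (adjusted p = 1.14e-05), 0.55 ± 0.11 for IL18 (adjusted p = 0.00254) and 0.38 ± 0.06 for MLKL (adjusted p = 3.32e-04). These 5 calls held in all 20 alternatives run for the average. GSDMD averaged 0.10 (95% interval -0.06 to 0.26, adjusted p = 0.326), RIPK1 -0.10 (adjusted p = 0.178) and RIPK3 -0.09 (adjusted p = 0.536). Without TNF library 3, GSDMD at 0.17 (adjusted p = 0.0143) and RIPK1 at -0.14 (adjusted p = 0.015) were also called, where 40.8% of all genes tested were called. Without library 1, where 36.4% were called, GSDMD was at 0.02 and RIPK1 at -0.07, and the 5 called genes ran from 0.41 for MLKL to 2.71 for ZBP1. The 4 genes ZBP1, GSDMB, PYCARD and IL18 had all 7 libraries with TNF above all 7 without, a pattern that 5.33% of all genes tested showed.

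The inhibitors alone left all 8 genes uncalled in edgeR's test. With ferrostatin-1, where 0.564% of all genes tested were called, none of the 8 had an unadjusted p below 0.05 and DESeq2 and voom called none; the differences ran from -0.35 for IL18 to 0.19 for ZBP1 on the log2 scale. With liproxstatin-1, where 0.0586% of all genes were called, 3 members had an unadjusted p below 0.05. These were ZBP1 at 1.00 (95% interval 0.09 to 1.904, adjusted p = 0.376), RIPK3 at 0.45 (0.10 to 0.80, adjusted p = 0.306) and MLKL at 0.26 (0.05 to 0.47, adjusted p = 0.311). RIPK1 was at 0.20 (adjusted p = 0.421) and was the single member that voom called, while DESeq2 called none. For ZBP1, RIPK1, RIPK3, MLKL and GSDMD both liproxstatin-1 libraries lay above all 3 control libraries. The share of all genes with this pattern was not counted, so it is not read as a trait of the members.

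Under TNF, ferrostatin-1 lowered GSDMD and left the other 7 genes uncalled, where 5.52% of all genes tested were called. GSDMD fell by 0.48 ± 0.12 (SE) on the log2 scale (adjusted p = 0.0435, edgeR), with levels of 85.4 ± 18.3 CPM (SD, n = 2) for TNF alone and 61.2 ± 5.65 CPM (SD, n = 3) with the inhibitor. Close to the threshold were RIPK3 at -0.61 ± 0.16 (adjusted p = 0.0511), PYCARD at -0.62 ± 0.18 (adjusted p = 0.0574) and ZBP1 at -1.12 ± 0.39 (adjusted p = 0.0952). The members' median difference was -0.42, against -0.01 over all genes tested. These values depended on which TNF library was kept. Without TNF library 1, GSDMD was at -0.25 (adjusted p = 0.238), RIPK3 at -0.40, PYCARD at -0.32 and ZBP1 at -0.74, and no member was called, against 2.49% of all genes tested. Without library 3, 31.2% of all genes tested were called, and all 4 members were called lower, with GSDMD at -0.68 (adjusted p = 8.52e-05), RIPK3 at -0.79 (0.00294), PYCARD at -0.87 (0.00118) and ZBP1 at -1.42 (0.0269). The GSDMD call held in 3 of 21 alternatives, and each library left out, other than TNF library 3, ended it; the adjusted p was 0.0503 without control library 2 and 0.143 without library 2 of TNF plus ferrostatin-1. RIPK3 was called, at -0.59 (adjusted p = 0.0445), without control library 2. MLKL at 0.14, GSDMB at 0.10 and RIPK1 at 0.02 lay on the other side of 0, and IL18 was at -0.35 (adjusted p = 0.243).

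Liproxstatin-1 added to TNF gave no call among the 8 genes in edgeR's test, where 0.343% of all genes were called. 2 members had an unadjusted p below 0.05: GSDMD at -0.44 (95% interval -0.73 to -0.15, adjusted p = 0.106) and PYCARD at -0.51 (-0.93 to -0.09, adjusted p = 0.154). DESeq2 called 1 member, GSDMD, and voom called none. ZBP1 was at -0.64 (adjusted p = 0.402), IL18 at -0.37 (adjusted p = 0.306) and RIPK3 at -0.01 (95% interval -0.41 to 0.38). Without TNF library 1, GSDMD and PYCARD were both at -0.20, and 1.51% of all genes were called; without library 3, where 28.7% of all genes were called, they were called at -0.64 (adjusted p = 2.96e-04) and -0.76 (adjusted p = 0.0056), and RIPK1 was called higher at 0.28 (adjusted p = 0.0296). Both inhibitor comparisons under TNF share the same 2 TNF libraries.

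**Figure D3:**
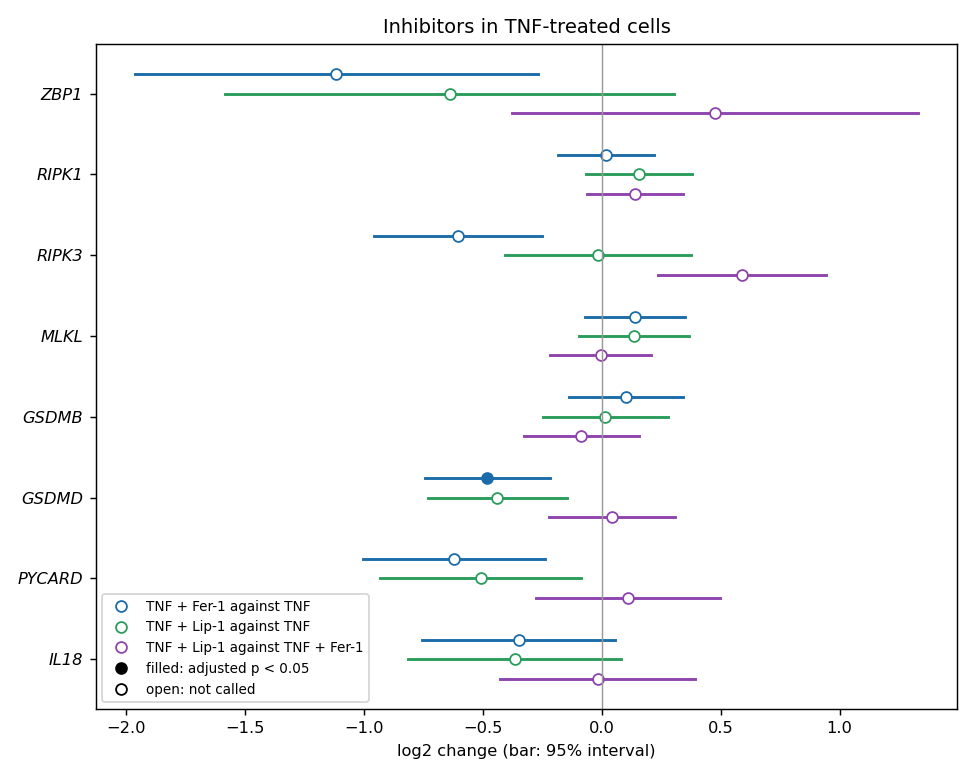
Log2 difference (horizontal axis) of each gene (vertical axis) for TNF with ferrostatin-1 against TNF (blue), TNF with liproxstatin-1 against TNF (green) and TNF with liproxstatin-1 against TNF with ferrostatin-1 (purple); bars are 95% intervals and filled points have an adjusted p below 0.05. GSDMD with ferrostatin-1 is the single filled point, and the RIPK3 interval of the purple comparison lies above 0 although its adjusted p is 0.186.

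Set against each other at the same dose of 20 uM and the same 72 h, the inhibitors gave no called difference among the 8 genes, without or with TNF. Ferrostatin-1 is an aromatic amine built on a benzoate ester, and liproxstatin-1 is a spiroquinoxaline amine. Without TNF, 0.104% of all genes were called; MLKL was the single member with an unadjusted p below 0.05, at 0.30 higher in liproxstatin-1 on the log2 scale (95% interval 0.06 to 0.53, adjusted p = 0.574), and DESeq2 and voom called none. Under TNF, 0.766% of all genes were called. RIPK3 was the single member with an unadjusted p below 0.05 there, at 0.59 higher with liproxstatin-1 (95% interval 0.24 to 0.94, adjusted p = 0.186), and DESeq2 and voom each called it. Its levels were 27.0 ± 1.05 CPM (SD, n = 2) with liproxstatin-1 and 17.9 ± 2.54 CPM (SD, n = 3) with ferrostatin-1, without overlap, and neither group holds a library of TNF alone. For the other 7 genes the difference under TNF ran from -0.09 for GSDMB to 0.48 for ZBP1, whose interval reached from -0.38 to 1.33. For GSDMD the interval was -0.22 to 0.31 and for MLKL -0.22 to 0.21. These intervals measure the spread between these libraries only, so they do not show that the inhibitors act alike at these genes.

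Whether an inhibitor altered the response to TNF was tested by interaction. For ferrostatin-1, 0.00451% of all genes tested were called and no member was; 3 members had an unadjusted p below 0.05, GSDMD at -0.54 (adjusted p = 0.151), RIPK3 at -0.66 (adjusted p = 0.173) and ZBP1 at -1.31 (adjusted p = 0.248), and DESeq2 and voom called none of the 8. For liproxstatin-1, 0% of all genes were called in edgeR's test, 4329 had an unadjusted p below 0.05, and DESeq2 called 1267 and voom 207. ZBP1 at -1.64 (adjusted p = 0.185) and GSDMD at -0.50 (adjusted p = 0.182) were the 2 members with an unadjusted p below 0.05, and DESeq2 and voom called no member. A smaller response of ZBP1, PYCARD or GSDMD to TNF in the presence of an inhibitor is thus not shown by these tests. Without TNF library 3, 26% of all genes tested and 3 members were called in each interaction: RIPK3, GSDMD and PYCARD for ferrostatin-1, and ZBP1, GSDMD and PYCARD for liproxstatin-1. Without TNF library 1 no member was called in either, against 0.918% and 1.01% of all genes.

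Levels of different genes were compared per length, on the deposited FPKM of the 8 libraries of 3 groups whose columns match a single sample. In control cells RIPK1 (11.9 FPKM) and GSDMD (11.7 FPKM) came first and overlapped, followed by PYCARD (8.75), RIPK3 (6.55), MLKL (4.96), GSDMB (4.53), IL18 (2.60) and ZBP1 (0.158); of these neighbours MLKL and GSDMB overlapped as well. With TNF and ferrostatin-1 PYCARD led at 15.8 FPKM, above GSDMD (12.2) and RIPK1 (12.1), which overlapped, and then came GSDMB (7.93), MLKL (7.52), RIPK3 (5.61), IL18 (3.40) and ZBP1 (1.10). With TNF and liproxstatin-1 the order was PYCARD (17.0 FPKM), RIPK1 (13.2), GSDMD (12.4), RIPK3 (8.39), MLKL (7.42), GSDMB (7.40), IL18 (3.32) and ZBP1 (1.53), with overlap of MLKL and GSDMB. PYCARD did not overlap with the next gene in either TNF group, and ZBP1 was last in all 3 groups.

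**Figure D4:**
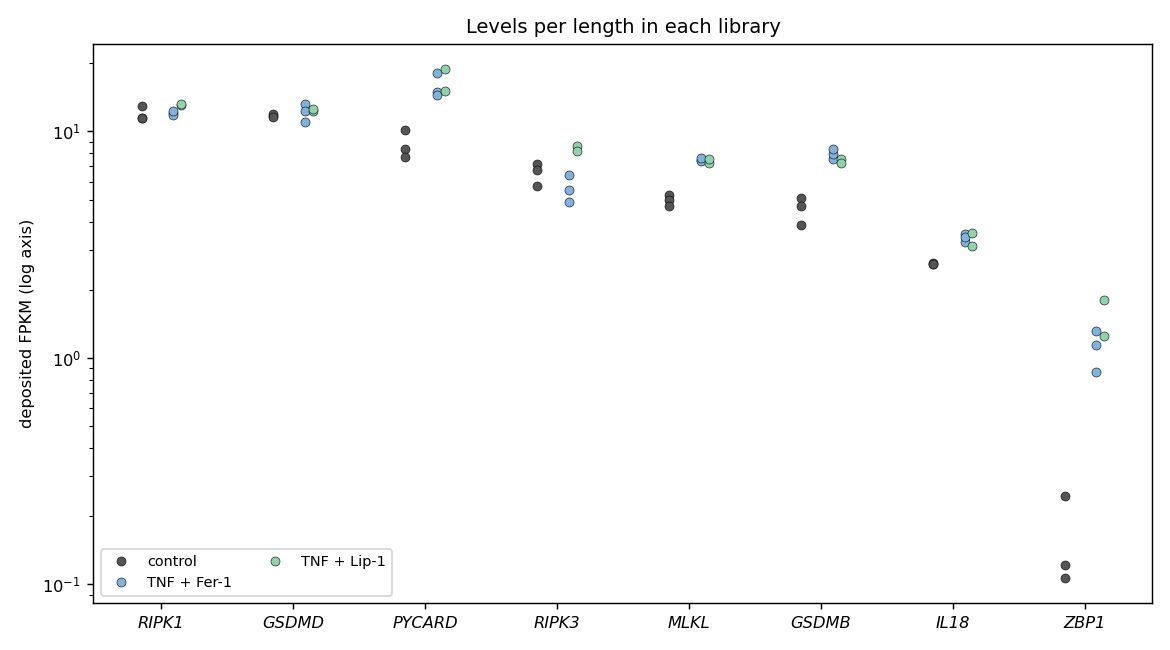
Deposited FPKM (vertical axis, log scale) of the 8 genes (horizontal axis) in the 8 libraries of control cells and of the groups given TNF plus either inhibitor, coloured by group. PYCARD has a mean of 8.75 FPKM in control and of 15.8 and 17.0 FPKM in the TNF groups, where it is above GSDMD and RIPK1, while ZBP1 is the lowest gene in each group.

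The order of RIPK3 and its substrate MLKL differed between groups. RIPK3 exceeded MLKL in control and with TNF plus liproxstatin-1, whereas MLKL exceeded RIPK3 in the group that received TNF and ferrostatin-1. The ratio of RIPK3 to MLKL in FPKM was 1.36, 1.15 and 1.45 in control, 0.738, 0.866 and 0.640 with TNF plus ferrostatin-1, and 1.19 and 1.08 with TNF plus liproxstatin-1. Among these libraries, the 3 with TNF plus ferrostatin-1 were thus the ones under 1. The groups given either inhibitor alone or TNF alone have no ratio here, as their FPKM columns were not used. This ratio was looked at after the values were seen, and is given as a description with no test.

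For each member the genes with the most similar log2 CPM over the 14 libraries were sought among 14892 genes with a mean count of at least 50, by Pearson's r, as a description; the libraries share their treatment groups and differ in depth. ZBP1 was closest to IFI6 (r = 0.979), ETV7 (0.978) and IFITM3 (0.976). GSDMB was closest to BTN3A2 (0.977), PSMB8-AS1 (0.976) and HDAC9 (0.9755), and MLKL to IFIT3 (0.963), IKZF3 (0.950) and SVIL (0.943). PYCARD was closest to BTBD16 (0.992), BST2 (0.9754) and RBM38 (0.973), IL18 to ZNF174 (0.951), SCAT1 (0.929) and RHEBL1 (0.915), and GSDMD to UBTD1 (0.967), C19orf25 (0.9485) and SLC35C2 (0.942). RIPK3 was closest to EPHA10 (0.957), GPRC5C (0.926) and TOLLIP (0.915), and RIPK1 to AC112907 (0.876), NCOA1 (0.860) and MYO1E (0.849), the lowest values of the 8 members.

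Of 102 partner genes listed for these pathways, 98 were in the table and 90 were tested. The TNF effect averaged over the 3 settings called 33 of them higher and 12 lower, against the 33.9% of all genes called. With TNF alone 31 rose and 1 fell, in ferrostatin-1 27 rose and 7 fell, and in liproxstatin-1 22 rose and 5 fell. Of all genes tested, 14.7%, 18.1% and 14.6% were called in these settings. The averages follow, by role, as log2 changes from edgeR, and can differ from the change with TNF alone. The lists were chosen with earlier results of these data known. Their counts are descriptions, to be read beside the 33.9% of all genes called in the average.

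At the receptor, where RIPK1 is ubiquitinated and held back from killing, 7 of 19 genes rose and 3 fell. TNFAIP3, which codes for the ubiquitin editor A20, rose by 4.30 ± 0.08 (SE, adjusted p = 4.73e-11) and the ubiquitin ligase BIRC3 by 3.79 ± 0.31 (adjusted p = 3.37e-06). TNFRSF1A, the receptor itself, fell by 0.61 ± 0.09 (adjusted p = 1.92e-04). RBCK1, a subunit of the linear ubiquitin ligase, fell by 0.46 ± 0.10 (adjusted p = 0.00449). With TNF alone TNFRSF1A was at -0.22 and not called (adjusted p = 0.344, edgeR). RBCK1 averaged 257.1 CPM in control and 252.9 CPM with TNF alone. Its mean went from 301.5 to 196.5 CPM with TNF in ferrostatin-1, and from 314.0 to 188.5 CPM in liproxstatin-1. BIRC3 was at 43.1 CPM in TNF library 1 and at 243 CPM in library 3, against 216 to 272 CPM with TNF and an inhibitor. Among the 4 genes of the complex in which RIPK1 meets caspase-8, CASP10 rose by 0.54 (adjusted p = 1.37e-04) and CFLAR, the caspase-8 inhibitor, by 0.36 (adjusted p = 1.15e-04), while CASP8 was at 0.02 (adjusted p = 0.823).

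Of 11 other starters and helpers of necroptosis, 4 rose and 2 fell. The double-stranded RNA sensor EIF2AK2 rose by 0.69 (adjusted p = 8.09e-04), and TICAM1, an adaptor with a RIP homotypic interaction motif, by 0.37 (adjusted p = 0.0129). EIF2AK2 was at 170.3 CPM in TNF library 1, within the 156.2 to 185.5 CPM of control, and at 322.5 CPM in library 3. TICAM1 averaged 27.2 CPM with TNF alone and 15.71 CPM in control. In liproxstatin-1 it averaged 20.55 CPM with TNF and 20.44 CPM without. STUB1, a ubiquitin ligase that acts on RIPK3, fell by 0.34 (adjusted p = 0.00183), and PPM1B, a phosphatase that acts on RIPK3, by 0.32 (adjusted p = 0.0234). STUB1 was at 143.2 and 113.3 CPM in TNF libraries 1 and 3, against 129.0 to 142.1 CPM in control. PPM1B was at 31.66 and 52.04 CPM in TNF libraries 1 and 3, against 49.93 to 57.23 CPM in control. Of 12 genes of membrane rupture and repair, 1 rose and 3 fell, which is near the 33.9% of all genes called in this average. The scaffold protein FLOT2 rose by 0.34 (adjusted p = 9.42e-04), and among the genes that fell were CHMP3 (by 0.42, adjusted p = 4.13e-05) and VPS4A (by 0.25, adjusted p = 0.00848) of the repair machinery that sheds damaged membrane. VPS4A averaged 127.2 CPM with TNF alone and 129.1 CPM in control. Its mean went from 135.6 to 107.0 CPM with TNF in ferrostatin-1, and from 130.3 to 99.3 CPM in liproxstatin-1.

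On the pyroptosis side, 5 of 13 inflammasome sensors and regulators rose and 1 fell. Among those that rose, MEFV could pass the filter on low counts only through libraries with TNF, so it could only be called higher. GBP1, a guanylate-binding protein, rose by 1.71 ± 0.16 (adjusted p = 8.71e-06). MEFV, the pyrin sensor, had 0 counts in all 7 libraries without TNF; with TNF alone it had 49 and 24 counts, with TNF plus ferrostatin-1 116, 111 and 101, and with TNF plus liproxstatin-1 55 and 43. Set against a floor of 3 counts over the group, the pooled MEFV level was 35.2-fold higher with TNF, 76.9-fold higher in ferrostatin-1 and 29.6-fold higher in liproxstatin-1. The spread between the libraries with TNF is not part of these ratios, so they are not lower bounds. NLRP3 fell by 2.12 ± 0.42 (adjusted p = 0.00208), from 1.10 to 2.55 CPM over the libraries without TNF to 0 to 1.03 CPM over those with it. CASP1, which cuts both GSDMD and IL18, rose by 1.68 ± 0.18 (adjusted p = 2.84e-05) and its decoy CARD16 by 1.36 ± 0.38 (adjusted p = 0.0151). CARD16 had few counts, 4 to 15 per library without TNF and 6 to 41 with it. With TNF plus ferrostatin-1 it had 11, 9 and 6 counts, against 10, 14 and 15 in control. CASP4, which senses intracellular lipopolysaccharide and cuts GSDMD, fell by 0.26 ± 0.08 (adjusted p = 0.03). CASP1 was at 4.83, 2.46 and 4.74 CPM in control, 8.14 and 15.5 CPM with TNF, 19.95, 21.9 and 15.8 CPM with TNF plus ferrostatin-1, and 24.2 and 21.7 CPM with TNF plus liproxstatin-1. None of 6 other gasdermins and gasdermin proteases was called, with GSDME, the gasdermin cut by caspase-3, at -0.33 (adjusted p = 0.463).

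Among 11 genes of the IL-1 family around IL18, 4 rose and 2 fell. IL18R1, a chain of the IL18 receptor, rose by 1.95 ± 0.21 (adjusted p = 2.18e-05) and the decoy receptor IL1R2 by 1.10 ± 0.13 (adjusted p = 4.35e-05), while IL1A fell by 1.13 ± 0.33 (adjusted p = 0.0202) in the average over the settings, the receptor chain IL1RAP fell by 0.73 ± 0.17 (adjusted p = 0.00488) and IL1B was at -0.07 (adjusted p = 0.761). With TNF alone IL1A was at 0.20 (adjusted p = 0.853), with 0.582 and 2.126 CPM in TNF libraries 1 and 3 against 0.664 to 1.76 CPM in control, whereas it was at -1.66 in ferrostatin-1 (adjusted p = 0.0552) and at -1.92 in liproxstatin-1 (adjusted p = 0.0587). Of 11 transcription factors known to act on genes of these pathways, 8 rose and none fell, most of all the NF-kB subunits RELB by 2.23 (adjusted p = 1.16e-07) and NFKB2 by 2.16 (adjusted p = 2.13e-09).

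**Figure D5:**
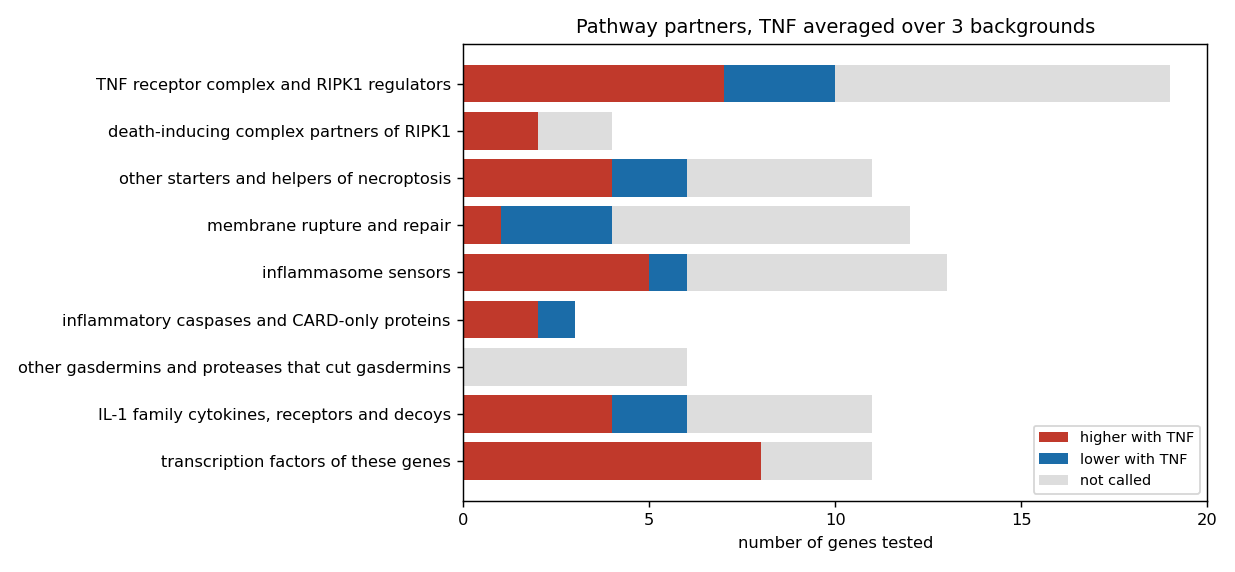
Number of tested partner genes per list (horizontal axis) that were called higher (red), lower (blue) or not called (grey) in the TNF effect averaged over the 3 settings. The transcription factors have 8 of 11 genes higher, and the other gasdermins and gasdermin proteases have 0 of 6 called. Over all genes tested, 33.9% were called in this average.

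The partners named for the inhibitors were picked once their values were known. The inhibitors alone called none of the 90 partner genes in edgeR's test. With ferrostatin-1, 11 had an unadjusted p below 0.05 and DESeq2 and voom called none; with liproxstatin-1, 19 did, and DESeq2 called 1 and voom 17. Ferrostatin-1 added to TNF raised 2 partners and lowered 5 in edgeR's test, against 5.52% of all genes called. There 40 partners had an unadjusted p below 0.05, and DESeq2 called 26 and voom 0. These calls rest on the 2 TNF libraries that stood apart, and they are not given without each. HSP90AA1, a chaperone of RIPK1 and RIPK3, rose by 1.33 and GBP2 by 0.77, while IL1B fell by 0.91, IL1RN by 0.74, IL36RN by 1.44, IKBKE by 0.53 and ITPK1, which makes inositol phosphates that MLKL needs, by 0.45. Liproxstatin-1 added to TNF called none of them, with 38 at an unadjusted p below 0.05, 15 called by DESeq2 and 1 by voom. Between the inhibitors under TNF 1 partner was called, the antagonist IL36RN, 1.54 higher with liproxstatin-1 (adjusted p = 0.0432).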

How the data were processed

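Strand-marked (dUTP) libraries of poly(A) RNA from HT-29 cells were sequenced as paired ends, per the labels' protocols. The authors deposited 1 table of whole-number counts per gene and of FPKM (counts scaled by transcript length and depth) for 14 libraries. The submitters' processing notes name HISAT2 2.0.4, cutadapt 1.9, StringTie 1.3.4d, DESeq2 and edgeR without their roles. Genome build and annotation, and how strand was treated in counting, were not given in the sources used here. Overlapping genes may therefore share counts, and positions are those of the deposited table. Columns of the ferrostatin-1, liproxstatin-1 and TNF groups are numbered 1 and 3 while the titles say 1 and 2, so their counts were matched by group only, and the 6 FPKM columns of these groups were not used.

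Counts were filtered with filterByExpr, scaled by TMM and fitted in edgeR 4.0.16 (R 4.3.3) with all 6 groups in 1 model. 12 comparisons were tested with the quasi-likelihood test and Benjamini-Hochberg adjustment at 0.05. The SE is the size of the log2 change over the square root of the F value, and 95% intervals are t intervals. Fits were tested on simulated data. CPM used a prior count of 0.5 for log values, and FPKM served for levels between genes only. As alternatives, DESeq2 1.42.0, limma 3.58.1 voom with quality weights, scaling by relative log expression, a replicate block, a fit of only the groups compared, a minimum CPM of 1 in 3 libraries, no filter at all, and leaving out each library were run. The text names every member, up to 2 risers and 2 fallers per partner list by size of the averaged TNF change, CASP8, CASP1, CASP4, GSDME and IL1B, the 3 genes most like each member, and overlapping genes. The members and lists were chosen with earlier results of these data known.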

Additional observations from a re-analysis of the deposited data

How the results depend on the processing

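Over the 12 comparisons, no tested difference of the 8 genes that was called changed its direction under any alternative run. Of 96 member results per setting, relative log expression scaling kept 95 on their side of the threshold, the stricter filter 94, no filter 92, DESeq2 91, the replicate block 91 and voom with quality weights 88; fitting only the groups compared kept 82 of 88 and was not run for the average over settings, which uses all groups. The count for TNF against control (6) was 3 with the replicate block, 2 with only the groups compared and 3 with voom, and 3 to 6 with single libraries left out. TNF in liproxstatin-1 (3) gave 0 to 3, TNF in ferrostatin-1 (5) gave 4 to 5 and the average (5) gave 5 to 7 with libraries left out. Ferrostatin-1 added to TNF (1) gave 0 with relative log expression scaling, no filter, the replicate block, only the groups compared and voom, 3 with the stricter filter, 4 with DESeq2, and 0 to 4 with libraries left out. Liproxstatin-1 added to TNF (0) gave 1 with DESeq2 and 0 to 3 with libraries left out, liproxstatin-1 against control (0) gave 1 with voom, and the inhibitors compared under TNF (0) gave 1 each with only the groups compared, DESeq2 and voom. Both interactions (0) gave 0 to 3 with libraries left out, the 3 being without TNF library 3. Same-numbered libraries did not deviate together (28 pairs, r from -0.081 to 0.11), and the block is not read as pairing. In groups of 2 libraries the deviations from the group mean mirror each other, so these pairs are not independent. Pairing was not tested in another way. Over all genes, ferrostatin-1 added to TNF called 1224 in the main analysis, 3828 with DESeq2, 294 with the replicate block, 14 with voom, 11 with only the groups compared and 69 to 7373 with libraries left out (7373 without TNF library 3, 589 without TNF library 1, 69 without library 2 of TNF plus ferrostatin-1); TNF against control called 3255, 4850 with DESeq2, 1514 with voom, 397 with only the groups compared and 1766 to 7380 with libraries left out. The cause was not tested. With 2 or 3 libraries per group, small changes such as those of RIPK1 and RIPK3 were not detectable beyond the intervals given.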

Other observations

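Liproxstatin-1 alone was the treatment without TNF in which ZBP1 lay highest, at 1.82 and 1.84 CPM against at most 1.48 CPM in the other 5 libraries without TNF, and in which CASP1 was at 7.91 CPM in both libraries against 2.46 to 5.40 CPM in those 5. Neither gene was called there in edgeR's test. In TNF library 1, ZBP1, GSDMD, PYCARD and IL18 were highest of the 14 libraries while CASP1 was lowest of the 7 with TNF, at 8.14 CPM, and BIRC3 likewise, at 43.1 CPM. These values were noticed after the data were seen and carry no test.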
